A study of Rattus norvegicus with 9 samples.

Results

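The 6 actin isoform genes of the rat, Acta1, Actc1, Acta2, Actg2, Actb and Actg1, were followed across 9 RNA-seq samples of neonatal rat ventricular myocytes, heart muscle cells taken from newborn animals and kept in culture. They were chosen by symbol, 6 of the 17327 rows of the read count table, and all 6 were among the 11873 genes that passed the filter on low counts. Primary cardiomyocytes received 50 µM phenylephrine, an agonist of alpha-adrenergic receptors, for 48 hours, or 10 nM of the growth factor IGF1 for 48 hours, or vehicle, with 3 samples in each group. The comparisons ask how the actin genes respond to each of these stimuli of hypertrophic growth, and whether the responses differ. The labels give neither strain nor litter. Nor do they state that replicates are separate cultures, so the p-values reflect a spread between samples that may be technical.

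Actin is the protein of the thin filament of muscle and of the microfilaments of every cell. Mammals make 6 nearly identical forms: Acta1 encodes skeletal and Actc1 cardiac alpha-actin, the actins of the sarcomere, Acta2 and Actg2 encode the alpha and gamma forms of smooth muscle, and Actb and Actg1 encode the cytoplasmic beta and gamma forms. In rodent heart, cardiac alpha-actin is the main sarcomeric form in the adult, while skeletal alpha-actin and smooth muscle alpha-actin are made earlier in development. Skeletal alpha-actin is a classical marker of the return of this earlier program in hypertrophy. Many actin genes are driven by serum response factor (SRF), which binds the CArG box and works with partners of the myocardin family. Some members of that family, though not all, respond to the pool of unassembled actin.

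Total counts ran from 31274396 to 48505265 per sample, and a level of 1 CPM (counts relative to the library total, scaled by edgeR's TMM factors) rested on 29.1 to 51.6 reads. IGF1 replicate 1 stood apart from the other IGF1 samples. The chi-square of its gene counts against theirs was 83.3 and 80.6 for each degree of freedom, and 2.97 to 7.17 for the other pairs within a group, so no pair agreed within sampling noise. In it, 66 genes were over 2-fold above the mean of IGF1 replicates 2 and 3 and 1 gene was over 2-fold below, and Acta1 and Actc1 were among the genes most above. The IGF1 tests of the members are therefore given with and without it. Without it the IGF1 group holds 2 samples. It was left out for its own values, so the smaller SEs and p-values without it do not measure the spread between IGF1 samples. Because the coding sequences of the isoforms are so alike, reads that match more than 1 isoform can be split or lost in counting, above all between Acta1 and Actc1, Actb and Actg1, and Acta2 and Actg2, so the levels carry that uncertainty. Transcript lengths were not used here, and levels of different genes are therefore compared only as shares of reads, not per length.

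The stretches of DNA before the gene starts are shown because the members differ in the CArG boxes they hold. RefSeq promoter windows of the GRCr8 build, another build than that of the counts, run from 250 bases before to 50 bases after the annotated start and were found for 5 of the 6 members, all but Actb. The 250 bases before the start follow for the 4 genes with a box, 5′ to 3′, with capitals for each full CArG box and each box with 1 mismatch in its 6-base A or T core.
Acta1, chr19:68784195-68784444, GRCr8, minus strand: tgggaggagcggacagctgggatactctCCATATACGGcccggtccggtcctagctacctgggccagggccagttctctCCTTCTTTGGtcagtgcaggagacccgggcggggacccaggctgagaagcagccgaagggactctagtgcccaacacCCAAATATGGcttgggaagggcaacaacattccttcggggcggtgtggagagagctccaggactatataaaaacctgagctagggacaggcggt
Actc1, chr3:121271828-121272077, GRCr8, minus strand: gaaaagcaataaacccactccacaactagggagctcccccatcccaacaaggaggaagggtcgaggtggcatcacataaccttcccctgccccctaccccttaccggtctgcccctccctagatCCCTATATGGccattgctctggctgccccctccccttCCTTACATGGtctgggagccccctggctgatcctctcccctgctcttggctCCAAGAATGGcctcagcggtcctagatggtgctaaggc
Acta2, chr1:241172504-241172753, GRCr8, minus strand: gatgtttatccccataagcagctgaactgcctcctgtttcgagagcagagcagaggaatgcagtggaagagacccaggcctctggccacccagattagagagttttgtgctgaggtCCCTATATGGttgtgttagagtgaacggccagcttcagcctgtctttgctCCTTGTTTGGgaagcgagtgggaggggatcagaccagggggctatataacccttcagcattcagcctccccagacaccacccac
Actg1, chr10:106120952-106121201, GRCr8, minus strand: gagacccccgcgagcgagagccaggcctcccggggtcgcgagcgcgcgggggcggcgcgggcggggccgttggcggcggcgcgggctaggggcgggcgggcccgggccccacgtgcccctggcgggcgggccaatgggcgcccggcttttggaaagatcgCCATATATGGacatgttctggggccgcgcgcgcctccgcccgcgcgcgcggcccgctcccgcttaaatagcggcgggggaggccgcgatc

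The Acta1 window held the full box CCAAATATGG at positions -94 to -85 from the start, and 2 boxes with 1 mismatch, CCATATACGG at -222 to -213 and CCTTCTTTGG at -171 to -162. The Actc1 window held 4 boxes: CCCTATATGG at -126 to -117, CCTTACATGG at -89 to -80 and CCAAGAATGG at -38 to -29, each with 1 mismatch, and the full box CCAAATAAGG at 3 to 12, just past the start and so outside the stretch printed above. Acta2 held CCCTATATGG at -134 to -125 and CCTTGTTTGG at -84 to -75, both with 1 mismatch, and Actg1 held the full box CCATATATGG at -90 to -81. No box was found in the Actg2 window, whose annotated start lies far inside the gene's span. The box reads the same way on both strands, so each was counted once. Among all 33469 rat windows of 300 bases, 1.64% held a full box and 9.42% a full box or one with 1 mismatch. A match is a run of letters, not a measured site, and SRF binding was not measured here.

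**Figure D1:**
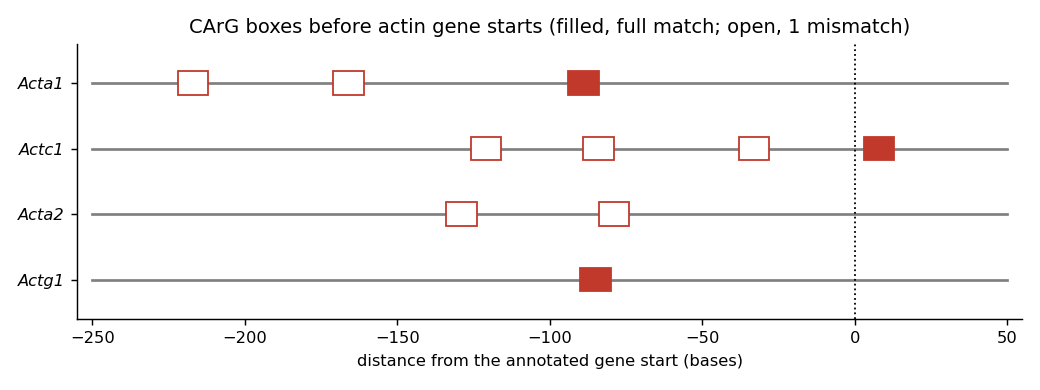
CArG boxes in the RefSeq promoter windows of 4 actin genes (GRCr8), by distance in bases from the annotated start, with full boxes filled, boxes with 1 mismatch open and the start as a dotted line. Acta1 and Actc1 hold 3 and 4 boxes, Acta2 holds 2 and Actg1 holds 1 full box.

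After phenylephrine, the RNA of the sarcomeric actins rose steeply, smooth muscle alpha-actin RNA rose moderately, and the cytoplasmic actins did not pass the threshold with TMM scaling. Acta1 was 9.09-fold and Actc1 3.07-fold above vehicle, Acta2 was 1.49-fold above it, and Actg2 was 1.16-fold below. Of the 6 members, 4 passed the threshold (3 higher, 1 lower) in edgeR's quasi-likelihood test with Benjamini-Hochberg adjustment over all genes, whereas 56.8% of all genes tested did (27.9% higher, 28.9% lower), so the count by itself does not set the actins apart. Without IGF1 replicate 1 in the fit it was again 4 of 6, against 63.4% of all genes. The groups did not overlap in CPM for 4 of the 6, against 66.6% of all genes. Rises of 2-fold or more past the threshold were found for 3.04% of all genes, Acta1 and Actc1 among them.

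**Figure D2:**
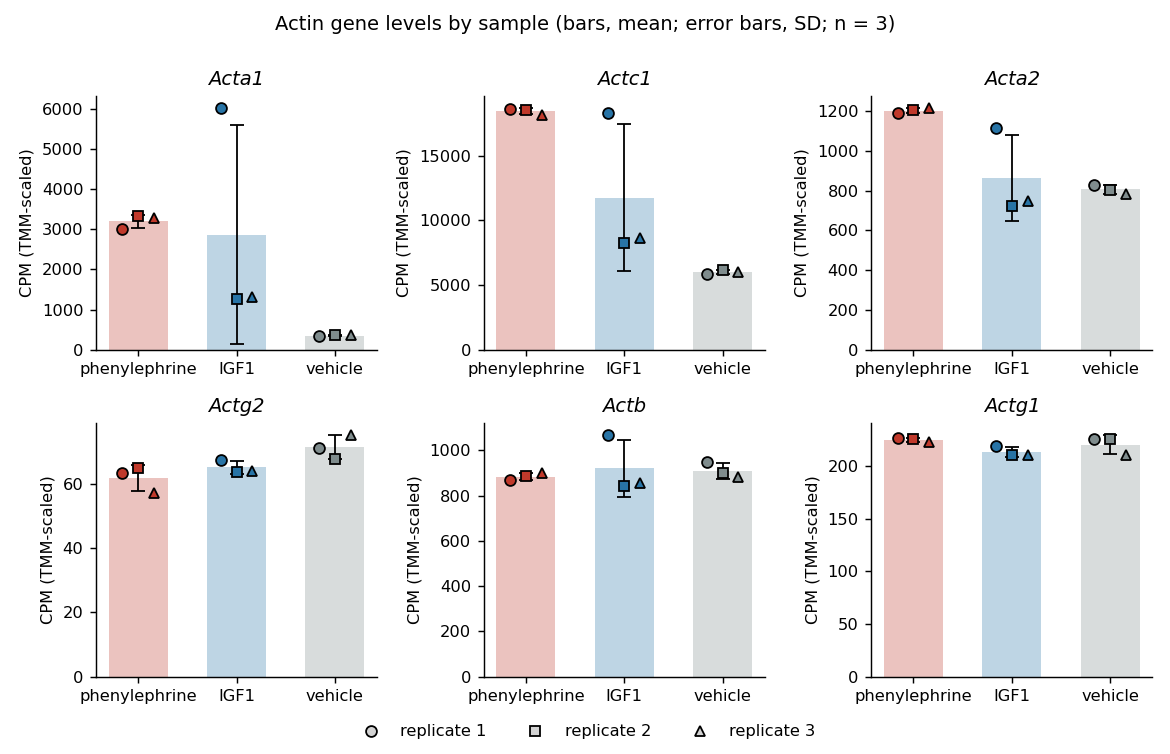
CPM (TMM-scaled, linear axes from 0) of the 6 actin genes in each sample with phenylephrine, IGF1 and vehicle, points for samples, bars for group means and error bars for the SD (n = 3). The 3 phenylephrine samples lie between 3016 and 3323 CPM for Acta1, far above the vehicle samples at 334 to 368 CPM, and IGF1 replicate 1 lies apart at 6019 CPM.

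Acta1, the skeletal alpha-actin, had 3016, 3323 and 3272 CPM in the phenylephrine samples, against 334, 368 and 356 CPM in the vehicle samples. Every phenylephrine sample was far above every vehicle sample. The means were 3204 ± 165 CPM with phenylephrine and 353 ± 17.2 CPM with vehicle (SD, n = 3 each), a log2 fold change of 3.18 ± 0.68 (SE; adjusted p = 0.00707 by edgeR's quasi-likelihood test). Each SE here reflects the spread over all 9 samples. With IGF1 replicate 1 left out of the fit, the fold change was again 3.18 with an SE of 0.04 (edgeR adjusted p = 4.38e-29).

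Actc1, the cardiac alpha-actin, had more reads than any other member in each of the 9 samples. It had 18600, 18590 and 18191 CPM with phenylephrine, against 5873, 6200 and 5995 CPM with vehicle, with no overlap between the groups. The means were 18460 ± 233 CPM with phenylephrine and 6023 ± 165 CPM with vehicle (SD, n = 3 each), a log2 fold change of 1.62 ± 0.32 (SE; edgeR adjusted p = 0.00492). In CPM this was the largest step of any member, 12438 CPM between the means, although its fold change was smaller than that of Acta1.

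Acta2, smooth muscle alpha-actin, which young and stressed cardiomyocytes as well as smooth muscle cells and myofibroblasts can make, had 1191, 1203 and 1214 CPM with phenylephrine, against 828, 805 and 785 CPM with vehicle. The groups did not overlap. The log2 fold change was 0.58 ± 0.16 (SE; edgeR adjusted p = 0.0164), and leaving out vehicle replicate 3 gave an adjusted p of 0.0504, which ended the call. Actg2, smooth muscle gamma-actin and the member with the fewest reads, moved the other way. It had 63.3, 64.8 and 57.1 CPM with phenylephrine, against 71.2, 67.7 and 75.0 CPM with vehicle, a log2 fold change of -0.21 ± 0.06 (SE; edgeR adjusted p = 0.00488). The lowest vehicle sample was above the highest phenylephrine sample. The smooth muscle pair thus split, and the reads of Acta2 per read of Actg2 were 18.8, 18.6 and 21.3 with phenylephrine, against 11.6, 11.9 and 10.46 with vehicle.

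The cytoplasmic actins, often used as reference genes, showed no change past the threshold. Actb had 870, 884 and 898 CPM with phenylephrine, against 949, 899 and 882 CPM with vehicle, and the groups overlapped. Its log2 fold change was -0.04 ± 0.08 (SE; edgeR adjusted p = 0.658). Actg1 had 226, 226 and 223 CPM with phenylephrine, against 226, 225 and 210 CPM with vehicle, a log2 fold change of 0.03 ± 0.04 (SE; edgeR adjusted p = 0.557). These values depend on how libraries are scaled: by library size only, the median of all genes was -0.22, against -0.03 with TMM, and Actb and Actg1 were then at -0.24 and -0.16, both past the threshold (edgeR adjusted p = 0.00231 and 0.00322). Relative to that median, Actb was at -0.01 and Actg1 at 0.06 on the log2 scale. Under the same scaling Acta1, Actc1 and Acta2 were still higher with phenylephrine, at 2.99, 1.42 and 0.38.

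After IGF1, Acta1 rose in all 3 samples and Actc1 rose less, while Acta2, Actb and Actg2 were at most 1.12-fold lower in the fit without replicate 1. Over all 3 samples, 2 of the 6 members passed the threshold, both higher, against 48.1% of all genes tested (24.7% higher, 23.4% lower). Without replicate 1, 5 of 6 did, 2 higher and 3 lower, against 53.9% of all genes (27.4% higher, 26.6% lower). The groups did not overlap in CPM for 3 of the 6, Acta1, Actc1 and Actg2, against 56.5% of all genes. Acta1 was the member with the largest fold change either way, 8.13-fold with all samples and 3.67-fold without replicate 1, and 2.29% of all genes rose 2-fold or more past the threshold with all samples.

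Acta1 had 6019, 1268 and 1317 CPM in IGF1 replicates 1, 2 and 3, against 334, 368 and 356 CPM in the vehicle samples. All IGF1 samples were above all vehicle samples, but replicate 1 was 4.66-fold above the mean of the other IGF1 samples, and only 12 of 11873 genes rose more in it. The group mean was 2868 ± 2729 CPM with IGF1 and 353 ± 17.2 CPM with vehicle (SD, n = 3 each), a log2 fold change of 3.02 ± 0.67 (SE; edgeR adjusted p = 0.0105). Without replicate 1, which leaves 2 IGF1 samples, the fold change was 1.87 ± 0.04 on the log2 scale (SE, edgeR adjusted p = 4.6e-23). The size of the Acta1 rise with IGF1 thus rests on replicate 1, while its direction was found without it.

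Actc1 had 18326, 8292 and 8631 CPM in IGF1 replicates 1, 2 and 3, against 5873, 6200 and 5995 CPM with vehicle. Replicate 1 was at the level of the phenylephrine samples, and IGF1 replicates 2 and 3 were between the phenylephrine and vehicle groups. With all samples the log2 fold change was 0.96 ± 0.31 (SE; edgeR adjusted p = 0.0433), and this call was lost, with adjusted p from 0.0683 to 0.116, when any single phenylephrine or vehicle sample was left out. Without IGF1 replicate 1 the fold change was 0.49 ± 0.03 on the log2 scale, 1.41-fold (edgeR adjusted p = 1.82e-16).

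Acta2 had 1112, 725 and 749 CPM in IGF1 replicates 1, 2 and 3, against 828, 805 and 785 CPM with vehicle. Replicate 1 was above every vehicle sample and replicates 2 and 3 were below every vehicle sample, so no single direction describes the group. The log2 fold change was 0.10 ± 0.16 with all samples (SE; edgeR adjusted p = 0.65) and -0.13 ± 0.03 without replicate 1 (SE; edgeR adjusted p = 0.000577). Actb did the same on a smaller scale, with 1066, 842 and 854 CPM in IGF1 replicates 1, 2 and 3, against 949, 899 and 882 CPM with vehicle. Its log2 fold change was 0.02 with all samples (edgeR adjusted p = 0.876), -0.10 without replicate 1 (edgeR adjusted p = 0.00675) and -0.07 when libraries were scaled by size only (edgeR adjusted p = 0.291).

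Actg1 and Actg2 were the members least set apart in IGF1 replicate 1, 0.06 and 0.08 on the log2 scale above IGF1 replicates 2 and 3, against a median absolute difference of 0.131 over all genes. Actg1 had 219, 210 and 211 CPM with IGF1, against 226, 225 and 210 CPM with vehicle, and the groups overlapped (log2 fold change -0.05, edgeR adjusted p = 0.351, and -0.07 without replicate 1, edgeR adjusted p = 0.0929). Scaled by library size only, it was at -0.13 and called (edgeR adjusted p = 0.0159). Actg2 had 67.4, 63.7 and 64.0 CPM with IGF1, against 71.2, 67.7 and 75.0 CPM with vehicle, with the highest IGF1 sample just below the lowest vehicle sample. Its log2 fold change was -0.13 ± 0.05 (SE; edgeR adjusted p = 0.0551), which missed the threshold. It was called without IGF1 replicate 1 (-0.16, edgeR adjusted p = 0.00437), without vehicle replicate 2 (0.0318) or phenylephrine replicate 3 (0.0422), and with scaling by size only (-0.22, edgeR adjusted p = 0.00576).

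Set directly against IGF1, phenylephrine gave more Acta2 RNA, and with IGF1 replicate 1 left out also more Acta1 and Actc1 RNA. With all samples, 1 of the 6 members passed the threshold, against 54.2% of all genes tested (27.1% higher, 27.1% lower), and the groups did not overlap for 2 of the 6, Acta2 and Actg1, against 58.8% of all genes. The member past the threshold was Acta2, at 1203 ± 11.7 CPM with phenylephrine and 862 ± 217 CPM with IGF1 (SD, n = 3 each), a log2 fold change of 0.48 ± 0.16 (SE; edgeR adjusted p = 0.0357). The call was lost when any sample but IGF1 replicate 1 was left out (adjusted p from 0.0513 to 0.0988), and without that replicate the fold change was 0.71, or 1.63-fold (edgeR adjusted p = 1.1e-22). All phenylephrine samples were above all IGF1 samples for Acta2, replicate 1 included.

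For the sarcomeric actins the answer turned on that 1 library. Acta1 differed by a log2 fold change of 0.16 ± 0.62 between phenylephrine and IGF1 with all samples (SE; edgeR adjusted p = 0.852) and by 1.31 ± 0.04, or 2.48-fold, without IGF1 replicate 1 (SE; edgeR adjusted p = 7.64e-20). Actc1 differed by 0.65 ± 0.31 with all samples (SE; edgeR adjusted p = 0.125) and by 1.13 ± 0.03, or 2.18-fold, without it (SE; edgeR adjusted p = 1.57e-28). Actb, at -0.06 with all samples and 0.06 without replicate 1, and Actg2, at -0.07 and -0.05, passed in neither fit, although scaling by size only gave -0.16 for Actb and -0.18 for Actg2 with adjusted p of 0.0242 and 0.0146. Actg1 was 1.07-fold higher with phenylephrine without replicate 1 (edgeR adjusted p = 0.0133), and at -0.03 with all samples and scaling by size only. Without that replicate 4 of 6 members passed, all higher with phenylephrine, against 60.7% of all genes (30.4% higher, 30.2% lower).

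**Figure D3:**
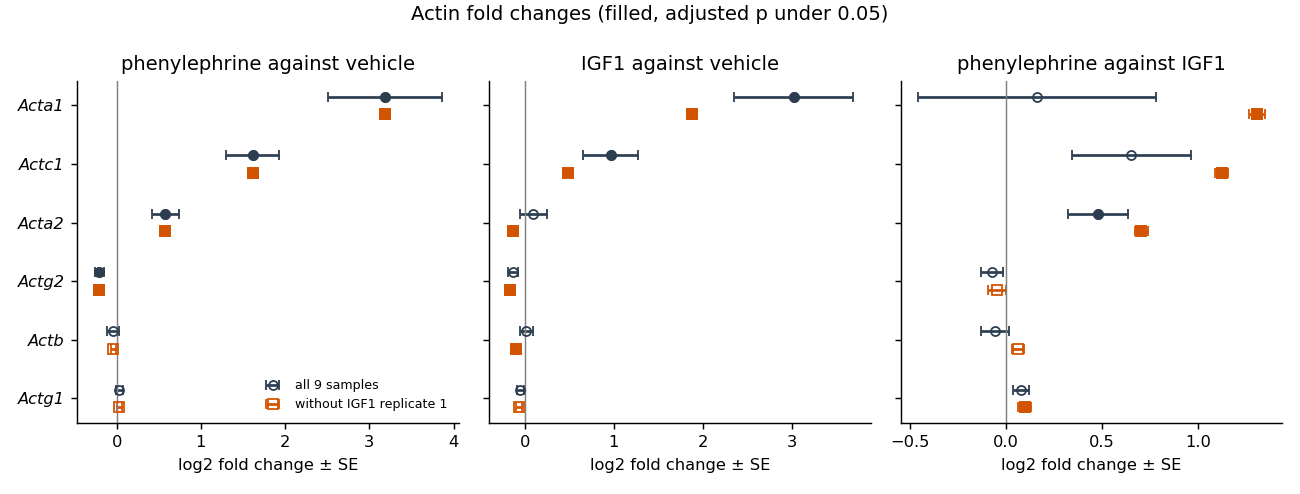
Log2 fold changes of the 6 actin genes in the 3 comparisons, with all 9 samples and without IGF1 replicate 1, bars for the SE. For Acta1 the fold change of phenylephrine over vehicle is 3.18 in both fits, while that of IGF1 over vehicle is 3.02 with all samples and 1.87 without replicate 1. With scaling by library size only, Actg1 and Actb near 0 change sign in some comparisons.

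The actin pool as a whole grew as part of the RNA read, and its makeup moved toward the sarcomeric forms. The 6 genes together held 2.23%, 2.26% and 2.23% of all counts with phenylephrine, 2.55%, 1.18% and 1.22% in IGF1 replicates 1, 2 and 3, and 0.892%, 0.907% and 0.883% with vehicle. No treated sample was as low as any vehicle sample. With 3 samples against 3 an exact two-sided permutation test cannot go below p = 0.10, the value both treatments reached against vehicle (0.161 after Benjamini-Hochberg adjustment over the 66 such tests). A sum of this kind cannot tell more RNA per cell from more cells of a type, which holds for every level given here.

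Within the pool, Acta1 made up 13.3 ± 0.643% of actin reads with phenylephrine, 14.9 ± 6.54% with IGF1 and 4.21 ± 0.148% with vehicle (SD, n = 3 each). IGF1 replicates 2 and 3 alone gave 11.1%, also above the vehicle share. Actc1 made up 76.8 ± 0.715% with phenylephrine, 71.4 ± 2.60% with IGF1 and 71.8 ± 0.803% with vehicle (SD, n = 3 each), and 72.9% in IGF1 replicates 2 and 3. It remained the main actin read in each sample. Between these alone, the reads of Actc1 per read of Acta1 were 6.17, 5.59 and 5.56 with phenylephrine, 3.05, 6.54 and 6.56 in IGF1 replicates 1, 2 and 3, and 17.6, 16.8 and 16.9 with vehicle. All 6 treated samples were thus far below all vehicle samples, and each exact permutation test against vehicle gave the smallest p it can, 0.10 (0.161 after adjustment).

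The cytoplasmic actins had a smaller share with both treatments than with vehicle. Actb and Actg1 together made up 4.57%, 4.57% and 4.70% of actin reads with phenylephrine, 4.79%, 9.23% and 9.003% in IGF1 replicates 1, 2 and 3, and 14.2%, 13.1% and 13.2% with vehicle. Acta2 made up 5.004 ± 0.0746% with phenylephrine, 5.61 ± 1.27% with IGF1 and 9.62 ± 0.336% with vehicle (SD, n = 3 each), with 6.35% in IGF1 replicates 2 and 3, so its share was lower with phenylephrine although its CPM was higher. Actg2 made up 0.257%, 0.450% and 0.851% with phenylephrine, IGF1 and vehicle, and 0.550% in IGF1 replicates 2 and 3. Within the cytoplasmic pair, the reads of Actb per read of Actg1 were 3.84, 3.92 and 4.03 with phenylephrine, 4.87, 4.003 and 4.05 with IGF1, and 4.21, 3.99 and 4.19 with vehicle. These ranges overlapped between each treatment and vehicle (exact permutation p = 0.2 for phenylephrine and 0.8 for IGF1).

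The Actc1 share depends on what it is a share of. Among all 6 actins it was 4.96 percentage points higher with phenylephrine than with vehicle, but among the 4 muscle actins it was 80.5% with phenylephrine, 77.4% with IGF1 (80.2% without replicate 1) and 83.0% with vehicle, a difference of -2.53 points against vehicle. Both differences had no overlap between samples and an exact permutation p of 0.10. The 95% Wilson intervals of the shares, which cover counting error only, were at most 0.296 percentage points wide.

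**Figure D4:**
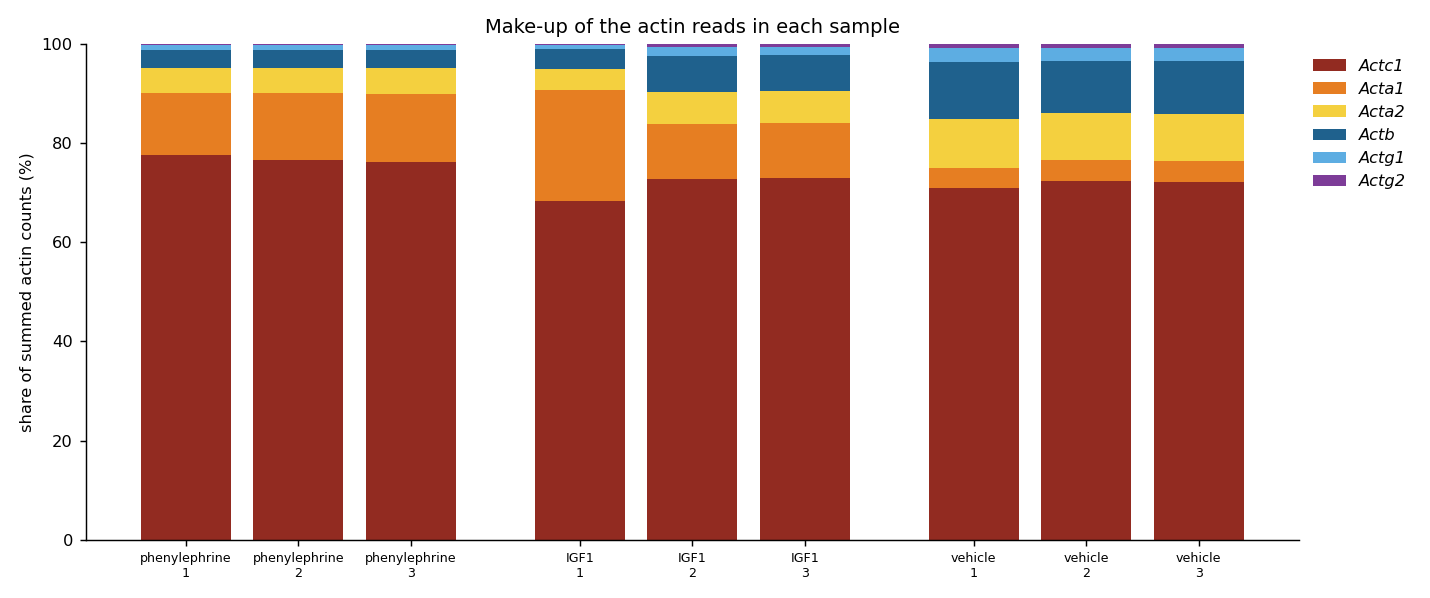
Share of the summed actin counts, in percent, held by each of the 6 actin genes in each sample with phenylephrine, IGF1 and vehicle, as stacked bars. The Actc1 part is the largest in each sample, the Acta1 part is 13.3% on average with phenylephrine and 4.21% with vehicle, and IGF1 replicate 1 has a smaller cytoplasmic part (4.79%) than IGF1 replicates 2 and 3.

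Genes whose products work on actin were followed in 5 lists, read against a median log2 fold change of -0.03 over all genes for phenylephrine against vehicle, where 27.9% of all genes were called higher and 28.9% lower. Among the thin filament partners, which bind actin in the sarcomere, 9 of 14 tested genes rose and 2 fell with phenylephrine, with a median log2 fold change of 0.37. Tnnt1, a slow skeletal troponin T, rose 2.80-fold to 4.89 CPM with phenylephrine, against 1.75 CPM with vehicle (edgeR adjusted p = 0.00498), and Cfl2, the muscle cofilin that severs filaments, rose 2.33-fold, with 849 ± 11.9 CPM with phenylephrine and 365 ± 12.2 CPM with vehicle (SD, n = 3 each; edgeR adjusted p = 0.00215). The falls were small: Tnni3, cardiac troponin I, was 1.11-fold lower (edgeR adjusted p = 0.0422) and Fhod3, a formin of the sarcomere, 1.10-fold lower (edgeR adjusted p = 0.00992). Leaving out single phenylephrine or vehicle samples ended both calls, that of Fhod3 without phenylephrine replicate 3 (adjusted p = 0.0565) and that of Tnni3 without vehicle replicate 2 or 3 or any phenylephrine replicate (up to 0.152).

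Of the genes of actin assembly and turnover, 23 of 28 rose and 2 fell with phenylephrine (median 0.30). Enah, a promoter of filament elongation, rose 4.91-fold, with 836 ± 22.7 CPM with phenylephrine and 170 ± 8.29 CPM with vehicle (SD, n = 3 each; edgeR adjusted p = 0.00369). Dstn, destrin, which takes filaments apart, rose 1.85-fold (edgeR adjusted p = 2.53e-06). Limk2, a kinase of cofilin, and Tmsb10, a thymosin that holds monomers, were 1.10-fold and 1.08-fold lower, and each call was lost when certain single samples were left out: vehicle replicate 2 or phenylephrine replicate 1 or 3 for Limk2 (adjusted p up to 0.102), and vehicle replicate 1 or phenylephrine replicate 1 or 3 for Tmsb10 (up to 0.121). Of the crosslinking and adhesion genes, 12 of 19 rose and 1 fell (median 0.36). Actn1, the nonmuscle alpha-actinin, rose 5.39-fold, with 1491 ± 53.7 CPM with phenylephrine and 276 ± 8.19 CPM with vehicle (SD, n = 3 each; edgeR adjusted p = 0.000848), Pdlim5, a partner of alpha-actinin, rose 3.24-fold (edgeR adjusted p = 2.84e-05), and the bundling protein gene Pls3 was 1.23-fold lower (edgeR adjusted p = 3.17e-05).

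In the list of SRF and its partner factors, 10 of 14 rose and 2 fell with phenylephrine (median 0.46). Fhl1, a LIM domain protein of muscle, rose 9.06-fold, with 5287 ± 53.1 CPM with phenylephrine and 584 ± 17.3 CPM with vehicle (SD, n = 3 each; edgeR adjusted p = 0.01), and Myocd, myocardin, rose 1.82-fold (edgeR adjusted p = 4.71e-09). Mef2d and Yy1, transcription factors, were 1.13-fold and 1.11-fold lower (edgeR adjusted p = 0.00421 and 0.00994). Srf itself, named after its values were seen, had a log2 fold change of 0.65 with phenylephrine and 0.27 with IGF1 against vehicle (edgeR adjusted p = 2.68e-05 and 0.013), and the IGF1 call was lost without vehicle replicate 1 or 3 (0.0573 and 0.051) and the fold change was 0.16 without IGF1 replicate 1 (0.000151). Of the genes that fold or modify actin, mainly prefoldin and the CCT chaperonin, 9 of 13 rose and 0 fell (median 0.32), among them Pfdn1 at 1.95-fold (edgeR adjusted p = 0.00728) and Cct3 at 1.41-fold (edgeR adjusted p = 0.000831). Scaled by library size only, where the median of all genes is -0.22, the counts risen and fallen with phenylephrine were 7 and 3 for thin filament partners, 15 and 4 for assembly, 11 and 6 for crosslinking, 8 and 4 for SRF factors and 8 and 2 for folding. Under that scaling 1751 of the 11873 genes tested were called higher and 5696 lower, against 3310 and 3429 with TMM.

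With IGF1 against vehicle, where 24.7% of all genes were called higher and 23.4% lower with a median of -0.0018, 11 of 14 thin filament partners rose and 0 fell (median 0.40), led by Tnnt1 at 2.76-fold (edgeR adjusted p = 0.00627; log2 fold change 0.92 without replicate 1, against 1.46) and Tpm1, alpha-tropomyosin, at 1.60-fold (edgeR adjusted p = 0.00185). The other lists moved less: 12 of 28 assembly genes rose and 3 fell (median 0.15), 6 of 19 crosslinking genes rose and 6 fell (0.07), 5 of 14 SRF factors rose and 2 fell (0.15), and 5 of 13 folding genes rose and 0 fell (0.12). Without IGF1 replicate 1 these counts were 11 and 1, 14 and 3, 6 and 8, 6 and 2, and 7 and 2, in the same order, against 27.4% higher and 26.6% lower over all genes. Dstn rose 1.52-fold and Cfl1, nonmuscle cofilin, 1.36-fold (edgeR adjusted p = 7.57e-05 and 3.27e-05), and Ezr and Myh10, a membrane linker and a nonmuscle myosin, rose 1.36-fold and 1.35-fold (edgeR adjusted p = 1.1e-05 and 6.06e-05). Fhl2, a LIM protein of the heart, rose 1.92-fold (edgeR adjusted p = 1.67e-05). Without replicate 1 the log2 fold changes were 0.49 for Tpm1, 0.48 for Dstn, 0.35 for Cfl1, 0.37 for Ezr, 0.34 for Myh10 and 0.80 for Fhl2, all still called. The other members named from these lists moved by less than any of these: Mef2a, Cct6a and Tcp1 rose 1.23-fold, 1.14-fold and 1.14-fold, and Tmsb10, Arpc1b, Lima1, Tln1, Mef2d and Yy1 fell 1.09-fold to 1.24-fold (edgeR adjusted p up to 0.0176). Of these, Arpc1b lost its call without vehicle replicate 1 (0.0616), and all 9 were called in the same direction without IGF1 replicate 1. List counts also moved when libraries were scaled by size only. In the same order they were 8 and 0, 11 and 3, 5 and 6, 4 and 2, and 3 and 1. Under that scaling 2031 of the 11873 genes tested were called higher and 3614 lower.

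Actn1, Enah and Fhl1, the genes named from the lists with the largest rises after phenylephrine, missed the threshold with IGF1 when all samples were used: against vehicle the log2 fold change was 0.37 for Actn1, 0.85 for Enah and 1.35 for Fhl1 (edgeR adjusted p = 0.378, 0.136 and 0.158). Without IGF1 replicate 1 these were -0.10, 0.20 and 0.06 (edgeR adjusted p = 0.00855, 7.8e-06 and 0.142). Pdlim5, Pfdn1 and Cct3 also missed it with all samples, at 0.26, 0.46 and 0.24 (edgeR adjusted p = 0.167, 0.118 and 0.0513), and without replicate 1 were at 0.06, 0.17 and 0.09, with Pfdn1 and Cct3 called (edgeR adjusted p = 0.12, 0.000188 and 0.00773). Cct3 lay at the edge of the threshold and was called in 9 of 18 alternatives. The direct test between treatments gave 2.06 for Actn1 and 1.44 for Enah, higher with phenylephrine (edgeR adjusted p = 0.00184 and 0.0244), and 1.83 for Fhl1, which missed the threshold (0.0659). Without IGF1 replicate 1 these were 2.54, 2.09 and 3.12, all called (edgeR adjusted p = 3.74e-40, 8.33e-35 and 3.58e-43). The Enah call with all samples was lost without any single phenylephrine sample or IGF1 replicate 2 or 3 (adjusted p from 0.0573 to 0.0702). Over the lists, phenylephrine against IGF1 had 5 higher and 5 lower of 14 thin filament partners, 19 and 2 of 28 assembly genes, 16 and 3 of 19 crosslinking genes, 7 and 1 of 14 SRF factors and 9 and 0 of 13 folding genes, against 27.1% higher and 27.1% lower over all genes. Without replicate 1 these were 8 and 6, 20 and 2, 16 and 3, 9 and 2, and 12 and 0, against 30.4% and 30.2%. With all samples scaled by library size only, they were 5 and 5, 13 and 4, 11 and 3, 6 and 2, and 6 and 1. Under that scaling 2132 of the 11873 genes tested were called higher and 4366 lower. Of the listed symbols, 12 had no row, Mrtfa, Mrtfb and Neb among them, and nothing was analysed under those symbols.

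**Figure D5:**
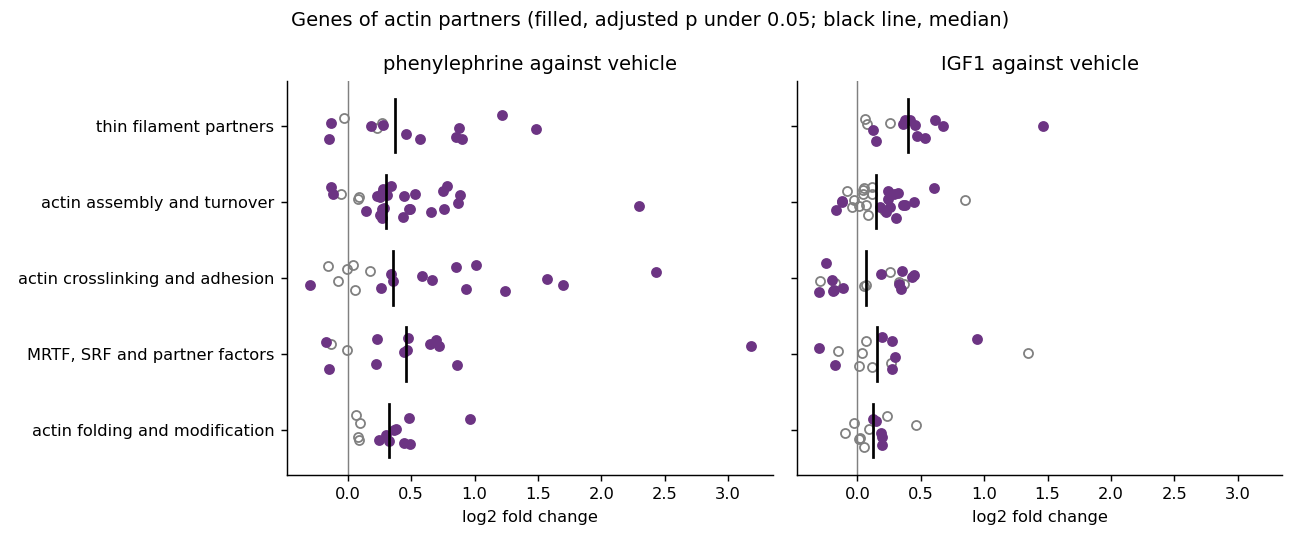
Log2 fold changes of each tested gene in 5 lists of genes whose products work on actin, for phenylephrine against vehicle and IGF1 against vehicle, with a black line for each list's median and filled points for adjusted p under 0.05. With phenylephrine 23 of 28 assembly genes are past the threshold and higher, against 27.9% of all genes. Scaled by library size only, 15 of 28 are, against 1751 of all 11873 genes tested.

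Marker genes were read beside these results, and their counts against the shares of all genes called. Those shares were 27.9% higher and 28.9% lower with phenylephrine, 24.7% and 23.4% with IGF1, and 27.4% and 26.6% with IGF1 without replicate 1. All 12 cardiomyocyte markers were present, with summed levels of 67490 to 67790 CPM with phenylephrine, 52340 to 68200 CPM with IGF1 and 46210 to 49770 CPM with vehicle, and the IGF1 maximum was replicate 1. With phenylephrine 8 of them rose and 4 fell: Nppa, atrial natriuretic peptide, had 8017 ± 227 CPM with phenylephrine and 705 ± 46.3 CPM with vehicle (SD, n = 3 each), while Mb, myoglobin, was 2.62-fold lower and Pln, phospholamban, 1.32-fold lower (edgeR adjusted p = 5.72e-11 and 1.05e-05). With IGF1 7 rose and 1 fell, and without IGF1 replicate 1, 7 rose and 3 fell. Nppa had 2848, 591 and 630 CPM in IGF1 replicates 1, 2 and 3. Replicate 1 was thus above every vehicle sample (652 to 739 CPM), and replicates 2 and 3 were below every vehicle sample. Myh7 held the largest part of each cardiomyocyte marker sum, with 27090, 28280 and 27470 CPM with phenylephrine and 20710, 22780 and 21530 CPM with vehicle. The 10 smooth muscle and pericyte markers, of cells that make Acta2 and Actg2, summed to 2120 to 2168 CPM with phenylephrine, 1445 to 1665 CPM with IGF1 and 1687 to 1744 CPM with vehicle, and 3 of them rose and 4 fell with phenylephrine. Cnn1, calponin, had 183, 181 and 192 CPM with phenylephrine, 76.0, 29.8 and 31.1 CPM with IGF1 and 33.1, 31.6 and 33.7 CPM with vehicle, with IGF1 replicate 1 above and replicates 2 and 3 below every vehicle sample, as for Acta2. Myh11, the myosin that defines smooth muscle, was 1.23-fold lower with phenylephrine (edgeR adjusted p = 1.13e-05). Synpo2 was 1.8-fold higher and Smtn 1.845-fold lower with phenylephrine (edgeR adjusted p = 0.00065 and 8.53e-09). With IGF1, 1 of the 10 smooth muscle and pericyte markers rose and 5 fell, and 2 rose and 4 fell without IGF1 replicate 1. The part of smooth muscle cells in the Acta2 and Actg2 results was not tested.

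The 10 fibroblast markers summed to 4675 to 4768 CPM with phenylephrine, 5920 to 6831 CPM with IGF1 and 5036 to 6021 CPM with vehicle, with Col1a2 under 1 CPM in every sample, and 1 of 9 tested rose and 4 fell with phenylephrine. With IGF1, 4 of the 9 tested fibroblast markers rose and 1 fell, with and without IGF1 replicate 1. The shares of all genes called are those given above for the cardiomyocyte and smooth muscle markers. The part of fibroblasts, which make cytoplasmic actins, in the Actb and Actg1 results was not tested. The 14 skeletal muscle markers, of the tissue in which Acta1 is the main actin, summed to 499 to 511 CPM with phenylephrine, 1122 to 1255 CPM with IGF1 and 1011 to 1065 CPM with vehicle, a sum carried by Ckm, which cardiomyocytes also make. Of them, 9 were under 1 CPM in every sample, the master regulators Myod1 and Myog included, and Myf5 and Pax7 had 0 counts in every sample. Of the 8 tested skeletal muscle markers, 0 rose and 1 fell with phenylephrine, and 3 rose and 1 fell with IGF1. Myh3 had 7.04, 8.35 and 8.47 CPM with phenylephrine and 2.41, 2.93 and 4.36 CPM with vehicle. In IGF1 replicates 1, 2 and 3 it had 28.1, 2.64 and 2.72 CPM. Without IGF1 replicate 1, Myh3 was called higher with phenylephrine than with vehicle (edgeR adjusted p = 8.58e-09). Endothelial markers summed to 44.2 to 56.4 CPM with phenylephrine, 23.7 to 30.7 CPM with IGF1 and 64.0 to 73.5 CPM with vehicle, and leukocyte markers to 63.2 to 80.7, 63.0 to 69.5 and 69.1 to 79.6 CPM in the same order.

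Finally, the genes whose levels ran most like each member were taken by Pearson's r of log2(CPM + 1) over the 9 samples, among 9300 other genes with a mean of at least 5 CPM. These r values are descriptions, since the samples fall into 3 groups and share library effects. For Acta1 the closest were Pgm1 (0.999), a phosphoglucomutase of glycogen metabolism, Them4 (0.996) and Itgb1bp2 (0.996), the muscle protein melusin. Pgm1 had 284, 282 and 287 CPM with phenylephrine, 328, 226 and 232 CPM with IGF1 and 168, 169 and 172 CPM with vehicle, the same order of samples by group as Acta1 over a much narrower range. For Actc1 they were Filip1 (0.997), a filamin-interacting protein, Itga7 (0.997), the laminin-binding integrin of muscle, and Mybpc2 (0.997), fast myosin-binding protein C. For Acta2 they were Adamtsl5 (0.996), Gadd45g (0.995) and Samd4a (0.995). Actb, closest to Marcks (0.933, and 0.750 without IGF1 replicate 1), Actg1, closest to LOC100360552 (0.903), and Actg2, closest to Kdelr1 (0.971), had looser matches. Among the members, r was 0.958 for Acta1 and Actc1 and 0.911 for Acta2 and Actc1.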

How the data were processed

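RNA was sequenced from 9 samples of primary neonatal rat ventricular myocytes in 3 groups of 3, with groups and replicate numbers from the sample titles. The authors deposited raw counts of reads for each gene, not normalized. The tools STAR, HTSeq and DESeq and the rn5 build are named, per the submitters' processing notes, with no role or version. For the strand setting of the counting no source used here gives a value. Of the rows, 26 carry calendar dates in place of gene names, and 0 columns lacked a sample.

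Genes were filtered with filterByExpr (minimum count 10, minimum total 15), leaving 11873 with 99.99% of the counts, normalized by TMM in edgeR 4.0.16 (R 4.3.3) and given a robust quasi-likelihood fit, with group as the model and all 9 samples in it. P-values were adjusted by Benjamini-Hochberg over all genes tested, threshold 0.05. SEs were taken as the size of the log2 fold change over the root of the F statistic. Shares and ratios were compared by exact two-sided permutation tests (SciPy 1.17.1, Python 3.11.15), 66 in all. The edgeR fit was tested on simulated counts, for phenylephrine against vehicle only. Depth per sample is 31274396 to 48505265 counts.

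The members and gene lists were chosen with earlier results of these data known. Against vehicle, up to 4 genes past the threshold are named from each list of actin partners, the 2 highest and 2 lowest. Exceptions in those lists are stated. The marker lists are named only in part. For Acta1, Actc1 and Acta2 the 3 genes most like each are named, and for Actb, Actg1 and Actg2 only the closest. Alternatives were DESeq2 1.42.0, limma-voom (limma 3.58.1), other scalings and filters, a fit of the 2 groups compared, a replicate block and leaving out each sample; running them on list genes, and on list counts, was chosen after seeing the data. Promoter sequences are from RefSeq (GRCr8).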

Additional observations from a re-analysis of the deposited data

How the results depend on the processing

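The calls of Acta1 and Actc1 with phenylephrine against vehicle and of Acta1 with IGF1 against vehicle kept their direction and stayed past the threshold under every alternative run; log2 fold changes without a single sample ran from 3.13 to 3.23, 1.58 to 1.63 and 1.87 to 3.37. The same ranges were 0.55 to 0.59 for Acta2 and -0.015 to 0.037 for Actg1 with phenylephrine against vehicle, -0.13 to 0.20 for Acta2, -0.10 to 0.070 for Actb (-0.00026 and -0.01 without vehicle replicates 2 and 3), 0.49 to 1.15 for Actc1 and -0.18 to -0.10 for Actg2 with IGF1 against vehicle, and -0.20 to 1.31 for Acta1 (-0.19 without IGF1 replicate 3), 0.36 to 0.71 for Acta2, -0.12 to 0.060 for Actb, 0.45 to 1.13 for Actc1 and 0.062 to 0.10 for Actg1 with phenylephrine against IGF1. Shares moved from -1.29 to 1.02 points for Actc1 (IGF1 against vehicle) and from -3.47 to 2.20 points for Acta1 (phenylephrine against IGF1), and Actn1 with IGF1 against vehicle was -0.10 without IGF1 replicate 1.

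Scaling by library size only gave -0.24 for Actb and -0.16 for Actg1 (phenylephrine against vehicle), -0.074 for Actb, -0.13 for Actg1 and -0.22 for Actg2 (IGF1 against vehicle), and -0.16 for Actb, -0.032 for Actg1 and -0.18 for Actg2 (phenylephrine against IGF1). It called 1751 genes higher and 5696 lower with phenylephrine against vehicle (3310 and 3429 with TMM), 2031 and 3614 with IGF1 against vehicle (2935 and 2781) and 2132 and 4366 with phenylephrine against IGF1 (3215 and 3222). Actc1 with IGF1 against vehicle lost its call with no filter (0.97), in the fit of the 2 groups alone (0.96) and with the replicate block (0.89); Actg2 gained one with voom (-0.14), the stricter filter (-0.14) and scaling by library size only. With phenylephrine against IGF1, Acta2 lost its call with no filter (0.48) and in the fit of the 2 groups (0.48), and Actc1 gained one with voom (0.75) and without robust fitting (0.65). Among the muscle actins the Actc1 share differed by -2.53 points. The cause of these changes was not tested. Samples with the same replicate number in different groups had correlations of deviations from their group means of -0.194 to 0.0615. With 3 samples in each group this check cannot exclude shared preparations. The replicate block gave 6648, 5594 and 6312 called genes, against 6739, 5716 and 6437. Sequencing depth limits Actg2 most, at 57.1 to 75.0 CPM.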
